A study of Drosophila melanogaster with 5 samples.

Results

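BigH1 and 7 other genes for histone variants and their handling were followed across a burst of Bam in fly testes. The 8 genes are BigH1, the germline linker histone of Drosophila melanogaster, the replacement histone genes His2Av, His3.3A, His3.3B and His4r, the centromeric histone cid, its loading factor cal1, and Slbp, the stem-loop binding protein. They were matched by gene name among the 17528 features of the expression table (14819 genes and 2709 transposon features), and all 8 were found. The set was chosen by family, but with the CPM of these genes in the same 5 libraries already known, so that their levels and changes are given as a description and none is tested.

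All 5 RNA-seq libraries were made from polyA RNA of testes plus seminal vesicle, and all males had the genotype hs-bam; bam[1]/bam[86]. They carry only mutant alleles at the bam locus and a bam transgene under a heat shock promoter. The males were raised at 25 °C, and a heat shock of 30 min at 37 °C was given at mid to late pupal stages. There was 1 library for testes without heat shock (no HS) and 1 each at 8, 16, 24 and 32 h post heat shock (PHS), each pooled from about 100 pairs of testes. The comparison asks which transcripts change as spermatogonia that cannot leave the mitotic program are pushed toward the spermatocyte state, and libraries of heat-shocked testes without hs-Bam were not analysed here, so that heat shock and Bam cannot be told apart. The heat shock promoter acts in all cells of the fly, and the testes held somatic cells beside the germ line.

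Nucleosomes are wound from the core histones H2A, H2B, H3 and H4, and a linker histone sits on the DNA between them. Most histone proteins of a dividing cell come from replication-dependent genes, whose mRNAs end in a stem-loop in place of a polyA tail and are made in S phase. Replacement histones are encoded by single genes with polyadenylated mRNAs and can enter chromatin outside S phase. BigH1 takes the place of the somatic linker histone H1 in the germ line and in the early embryo, and previous work in the fly testis has described it as a target of Bam.

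Reads assigned to features numbered 10356663 in no HS and between 21461541 and 28766676 at the later times. Values are CPM, the reads of a gene per 1000000 reads after normalization between libraries, and changes are differences of log2(CPM + 1). A gene is called higher or lower when that difference is past 1, that is 2-fold. Since no time has a second library, the spread between samples is unknown, no p-value is given, and every interval is an exact 95% interval that covers counting error alone. As a check of the labels, bam was at 64.7 CPM in no HS and at 128, 90.4, 74.2 and 60.5 CPM at 8, 16, 24 and 32 h PHS. Of 7 germ line markers none was at 0, and their summed level was 1624, 1572, 1397, 1425 and 1270.2 CPM in no HS and at 8, 16, 24 and 32 h PHS. bam is among the 7, so that these sums include any reads of the transgene and are no clean measure of germ line content. Markers of muscle sheath summed to between 1190.5 and 1582 CPM, those of cyst cells to between 161 and 206 CPM, those of accessory gland and duct to between 76.9 and 117 CPM, mostly from Est-6, and those of fat body to at most 8.03 CPM.

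BigH1 (FBgn0038252) is a forward-strand gene at 14663450 to 14664822 of chromosome 3R in BDGP6.54, with 1 annotated transcript of 2 exons and 1279 exonic bases, none of them shared with another gene. BigH1 was at 31.7 CPM in no HS (326 reads), 19.9 CPM at 8 h (532 reads), 5.79 CPM at 16 h (122 reads), 4.62 CPM at 24 h (132 reads) and 12.3 CPM at 32 h PHS (292 reads). The level was therefore highest without heat shock, lowest at 16 and 24 h, and intermediate at 32 h. Its changes from no HS were -0.65, -2.27, -2.54 and -1.30 at 8, 16, 24 and 32 h PHS.

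At 8 h PHS BigH1 stood at 62.6% of its level in no HS (54.4% to 72.0%), short of the 2-fold line. At 16 h it was at 18.2% of no HS (14.7% to 22.5%) and at 24 h at 14.6% (11.8% to 17.9%), which placed it second from the bottom among the 6675 and 6727 features with at least 10 CPM in 1 of the 2 libraries of each comparison. At 8 h it ranked 37 from the bottom of 6676 such features. Between consecutive libraries, most of the decrease fell in the interval that ended at 16 h, where the level was 29.2% of that at 8 h (23.7% to 35.6%). It was the only one of the 8 genes past 2-fold in that comparison, in which 0.177% of all features were lower by as much. The level at 24 h was 79.8% of that at 16 h, and the interval of 62.0% to 103% holds no change.

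The last interval ran the other way. BigH1 was at 12.3 CPM at 32 h PHS against 4.62 CPM at 24 h, a change of 1.25 and a CPM ratio of 2.67 (216% to 330.1% of the level at 24 h). Of all features 0.742% were higher by more than 2-fold in that comparison, and BigH1 was the only gene of the 8 on that side. The level at 32 h was 38.8% of that in no HS (33.1% to 45.6%) and 62.1% of that at 8 h PHS (53.6% to 71.7%). With a pseudocount of 5 CPM the step from 24 to 32 h was 0.85 and no longer past 2-fold. Spermatocyte markers were also higher, with 7 of 15 past 2-fold in the same comparison. Their summed level was 216, 205, 163, 380.1 and 1099 CPM over the 5 libraries in time order, with comr and sa at 0 in no HS. At 32 h the largest parts of that sum were those of Rbp4, at 399.6 CPM, and fest, at 288.7 CPM. Against no HS, 3 of the 15 markers were lower at 32 h, with the lowest change, -1.20, for twe. The part of these markers in the change of BigH1 was not tested. In RNA from whole testes, fewer cells of a type and less RNA per cell cannot be told apart.

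**Figure D1:**
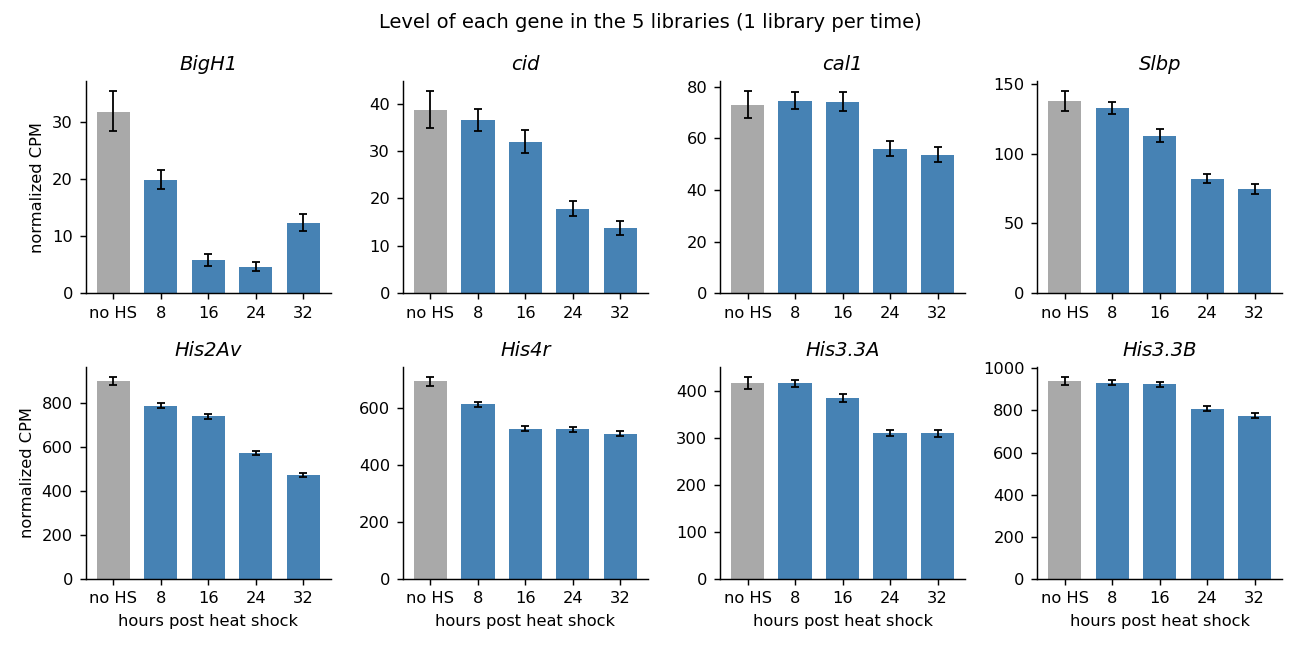
Level of each of the 8 genes in normalized CPM (vertical axes, starting at 0) in the library without heat shock (grey) and in the libraries at 8, 16, 24 and 32 h PHS (blue). Bars are single libraries and error bars are exact 95% Poisson intervals of the reads. BigH1 is lowest at 24 h, at 4.62 CPM, and higher again at 32 h, at 12.3 CPM, whereas the other 7 genes have their lowest level at 32 h, except that His3.3A (under both rescalings) and His4r (under equal totals) come out lowest earlier.

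The genes around BigH1 did not share changes of this size. Its nearest neighbours are Rad17, 252 bases away, and Meltrin, 84 bases away, both on the reverse strand. Rad17, named for a checkpoint protein, was at 28.9 CPM in no HS and 29.5, 27.1, 31.1 and 22.4 CPM at the later times, and Meltrin, a metalloprotease gene, stayed between 85.2 and 94.4 CPM. Over the 6 genes nearest on either side (3 each), changes from no HS lay between -0.56 and 0.15 at all 4 times. The lowest was that of Hexim, 2272 bases from BigH1, at 16 h. Hexim was at 73.3 CPM in no HS and 60.6, 49.4, 53.1 and 62.4 CPM at 8, 16, 24 and 32 h PHS. Like BigH1 it was therefore lowest at 16 and 24 h, with smaller changes. His4r lies on the same arm, 36.8 kb from BigH1 with 6 listed genes between them.

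The 5 genes nearest to BigH1 in time course, by the largest difference in change from no HS at any of the 4 times, were ovo, Syn1, IFT52, CG42404 and CG4860, among 6810 genes with at least 10 CPM in some library. None came close, as the smallest of these differences was 0.67, for ovo. ovo, a zinc finger regulator of the germ line, was at 367 CPM in no HS and at 154, 103, 99.7 and 145 CPM at 8, 16, 24 and 32 h PHS. Its decrease at 8 h, with a change of -1.24, was larger than that of BigH1 at 8 h, and its change of -1.87 at 24 h was smaller. IFT52, named for an intraflagellar transport protein, was at 10.8 CPM in no HS and 2.63 CPM at 24 h, and like BigH1 it was higher at 32 h, at 4.81 CPM.

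**Figure D2:**
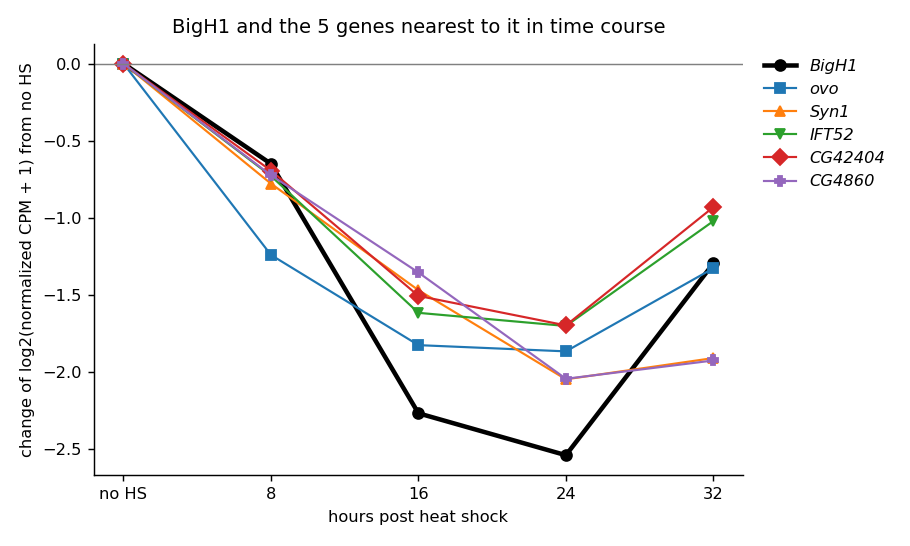
Change of log2(normalized CPM + 1) from no HS (vertical axis) at each time PHS (horizontal axis) for BigH1 (black) and the 5 genes nearest to it in time course, with 1 library per point. BigH1 reaches -2.54 at 24 h, below the other 5, which lie between -2.05 and -1.70.

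cid encodes the histone H3 variant that marks centromeres, and cal1 the factor that places it there. cid (FBgn0040477, chromosome 2R from 13485617 to 13486631, 1 exon) was at 38.7 CPM in no HS, 36.5 CPM at 8 h, 32.0 CPM at 16 h, 17.9 CPM at 24 h and 13.7 CPM at 32 h PHS. Each library was lower than the one before it, with the largest step between 16 and 24 h. The level at 24 h was 55.8% of that at 16 h (49.7% to 62.7%). At 8 h cid was at 94.3% of no HS, and its interval of 83.9% to 106% held the value of no difference. At 24 h cid was at 46.2% of no HS (40.4% to 52.8%) and at 32 h at 35.5% (30.6% to 41.2%), with changes of -1.07 and -1.43. With a pseudocount of 5 CPM its change at 24 h was -0.93, inside the 2-fold line.

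cal1 (FBgn0038478, chromosome 3R from 17088280 to 17091938, 2 exons) had 72.9 CPM in no HS, 74.7 CPM at 8 h, 74.1 CPM at 16 h, 56.0 CPM at 24 h and 53.7 CPM at 32 h PHS. It was level over the first 3 libraries and lower in the last 2, at 73.6% of no HS at 32 h (67.2% to 80.7%), with a change of -0.43. Of its exonic bases 11.3% are shared with cher on the opposite strand, and whether strand was used in counting is not given in the sources used here. Since cid was lower by more than cal1, the CPM of cid amounted to 25.6% of those of cal1 at 32 h, against 53.0% in no HS.

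Other genes of the centromere and the kinetochore, the protein structure that ties it to the spindle, had smaller decreases than cid at 24 and 32 h. Of 10 such genes (Cenp-C, Spc105R, Nnf1a, Nnf1b, Kmn1, Mis12, Ndc80, Nuf2, Spc25 and Mps1), 0 were past 2-fold in either direction at any time. That count is near the background, since against no HS at most 1.18% of all features were lower by more than 2-fold and at most 1.13% higher. Their median changes were 0.16, -0.16, -0.19 and -0.22 at 8, 16, 24 and 32 h PHS. Cenp-C, which binds centromeric nucleosomes, was at 72.8 CPM at 32 h against 95.6 CPM in no HS. The lowest of the 10 changes at 32 h was -0.55 for Kmn1, and Spc25, another kinetochore subunit, had -0.53. Against 8 h PHS all 10 were lower at 32 h, with a median change of -0.31.

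The 5 nearest genes to cid in time course were Caf1-180, Mcm3, CycE, Mcm6 and Ctf4, whose changes stayed within 0.12 of those of cid at all times. Caf1-180, the large subunit of chromatin assembly factor 1, was at 234 CPM in no HS and 229, 201, 115 and 90.7 CPM at 8, 16, 24 and 32 h PHS. CycE, the cyclin of the entry into S phase, was at 90.9 CPM at 32 h against 248 CPM in no HS. In all, 115 of 6810 genes stayed within 0.5 of cid at every time. The genes nearest to cal1 were pzg, phol, cyst, CG13625 and crm, and 287 of the genes stayed within 0.2 of it at every time, against 15 for cid.

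Slbp encodes the protein that binds the stem-loop of replication-dependent histone mRNAs and is needed to process them. Slbp (FBgn0041186, chromosome 3R from 29152074 to 29153266, reverse strand, 2 exons) was at 138 CPM in no HS, 133 CPM at 8 h, 113 CPM at 16 h, 82.0 CPM at 24 h and 74.6 CPM at 32 h PHS. As for cid, the largest step was that from 16 to 24 h, where the level was 72.6% of that at 16 h (68.5% to 76.8%). Slbp was at 54.2% of no HS at 32 h (50.5% to 58.2%), a change of -0.87 that stops short of 2-fold.

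The nearest genes in time course were Ote, Snr1, RPA1, PolD1 and meso18E, all within 0.08 of Slbp. RPA1, which coats single-stranded DNA, was at 169 CPM at 32 h against 303 CPM in no HS, and PolD1, the catalytic subunit of a replicative DNA polymerase, at 54.9 CPM against 97.5 CPM.

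The genes that act with Slbp on histone pre-mRNAs or build the histone locus body, the nuclear site of histone transcription, had medians nearer to no change than Slbp from 16 h on. Over 12 of them the median changes were -0.01, -0.08, -0.07 and -0.19 at 8, 16, 24 and 32 h PHS, and 0 were past 2-fold against no HS, where 0.165% to 1.18% of all features were lower and 0.2% to 1.13% higher. Of the 12, 10 had at least 10 CPM in 1 of the 2 libraries compared. Lsm11 was at 2.80 CPM or less and snRNA:U7 had 2 reads or fewer in every library, so that their changes say little. Lsm10, a subunit of the U7 snRNP that directs the cleavage, was lower by more than Slbp, with 10.0 CPM at 32 h against 20.3 CPM in no HS and a change of -0.94. Against 8 h, where it had 23.4 CPM, Lsm10 at 32 h was past 2-fold, its change being -1.14. mxc, which nucleates the histone locus body, was at 131 CPM at 32 h against 214 CPM in no HS. The cleavage factors Cpsf73 and Sym were at 85.6 and 131 CPM at 32 h, against 77.8 and 117 CPM in no HS.

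The replication-dependent histones themselves were almost out of reach of these libraries. Of 111 annotated copies in BDGP6.54, 4 had a row in the table, and together they had 11 reads in no HS and 26, 46, 22 and 10 reads at 8, 16, 24 and 32 h PHS. Their mRNAs have no polyA tail, the RNA was polyA selected, and the authors removed reads with a mapping quality under 10, which near-identical copies give. These values therefore say little about the histone supply of the cells.

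Among the replacement histones, His2Av showed the largest difference between no HS and the late libraries. His2Av (FBgn0001197, chromosome 3R from 26866929 to 26869220) encodes the only H2A variant of the fly, which serves both at promoters and at DNA breaks. It was at 899.6 CPM in no HS, 787 CPM at 8 h, 739 CPM at 16 h, 571 CPM at 24 h and 470.2 CPM at 32 h PHS. Each library was lower than the one before it by more than the counting error. At 32 h His2Av was at 52.3% of no HS (50.9% to 53.7%), a change of -0.93 that lies just inside the 2-fold line.

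The genes for the Domino and Tip60 complexes, which exchange H2A for H2Av, lay on both sides of no change. Of 16 such genes 0 were past 2-fold at any time, a count near the background of 0.165% to 1.18% lower and 0.2% to 1.13% higher over all features against no HS, and their median changes were 0.09, 0.03, -0.09 and 0.01 at 8, 16, 24 and 32 h PHS. dom, the ATPase, was at 1550 CPM in no HS, 1641 CPM at 8 h, 1895 CPM at 16 h, 1425 CPM at 24 h and 1077 CPM at 32 h PHS. Its highest level was thus at 16 h, when His2Av was already lower. Nipped-A, the large scaffold subunit, was at 84.8 CPM at 32 h against 49.5 CPM in no HS, with the highest change of the list, 0.77.

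His4r encodes histone H4 from a polyadenylated mRNA. His4r (FBgn0013981, chromosome 3R from 14625755 to 14626614) was at 694 CPM in no HS, 613 CPM at 8 h, 528 CPM at 16 h, 526 CPM at 24 h and 511 CPM at 32 h PHS. Its decrease came early: the level at 8 h was 88.4% of no HS (85.9% to 90.9%) and that at 16 h 76.0% (73.8% to 78.4%), while the level at 24 h was 99.6% of that at 16 h (97.2% to 102%). His4r thus reached its late level before cid, cal1 and Slbp reached theirs. At 32 h it was at 73.6% of no HS, a change of -0.44.

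His3.3A and His3.3B encode the same protein, histone H3.3, from separate genes. His3.3A (FBgn0014857, chromosome 2L from 5055058 to 5056149) was at 417 CPM in no HS, 415 CPM at 8 h, 385 CPM at 16 h, 311 CPM at 24 h and 309 CPM at 32 h PHS. His3.3B (FBgn0004828, chromosome X from 9152523 to 9156669, reverse strand) was at 941 CPM in no HS, 932 CPM at 8 h, 924 CPM at 16 h, 809 CPM at 24 h and 776 CPM at 32 h PHS. Both were near their starting level at 8 h and lower at 24 h, and His3.3B varied least of the 8 genes, with 82.5% of no HS at 32 h (80.4% to 84.5%) and a change of -0.28. The change of His3.3A at 32 h was -0.43. Of the exonic bases of His3.3A 16.8% are shared with Nepl3 on the opposite strand.

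Per kb of exon, the H3.3 mRNA pool was nearly evenly divided between its genes. His3.3A made up 53.0% of it in no HS (52.1% to 53.9%) and 53.2%, 51.5%, 49.5% and 50.4% of it at 8, 16, 24 and 32 h PHS, with an interval of 49.7% to 51.1% at 32 h. The pool itself was at 613 CPM per kb at 32 h and 785 CPM per kb in no HS. The even division rests on the exon lengths of the annotation, since His3.3B has 2552 exonic bases over 4 transcripts and His3.3A 1002 over 3. The length of His3.3A includes the 16.8% of its bases shared with Nepl3, and the intervals do not cover these choices.

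On the same per-length scale the order of the 8 genes in no HS was His4r (872 CPM per kb), His2Av (735), His3.3A (416), His3.3B (369), Slbp (122), cid (38.1), BigH1 (24.8) and cal1 (20.2), and the counting intervals of neighbours in that order did not meet. At 32 h PHS the order was His4r (642 CPM per kb), His2Av (384), His3.3A (309), His3.3B (304), Slbp (65.9), cal1 (14.9), cid (13.5) and BigH1 (9.64). There the H3.3 genes were within counting error of each other, as were cal1 and cid. BigH1 was the last of the 8 from 8 h onward, and at 24 h, with 3.61 CPM per kb, it was far under cal1, with 15.6.

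**Figure D3:**
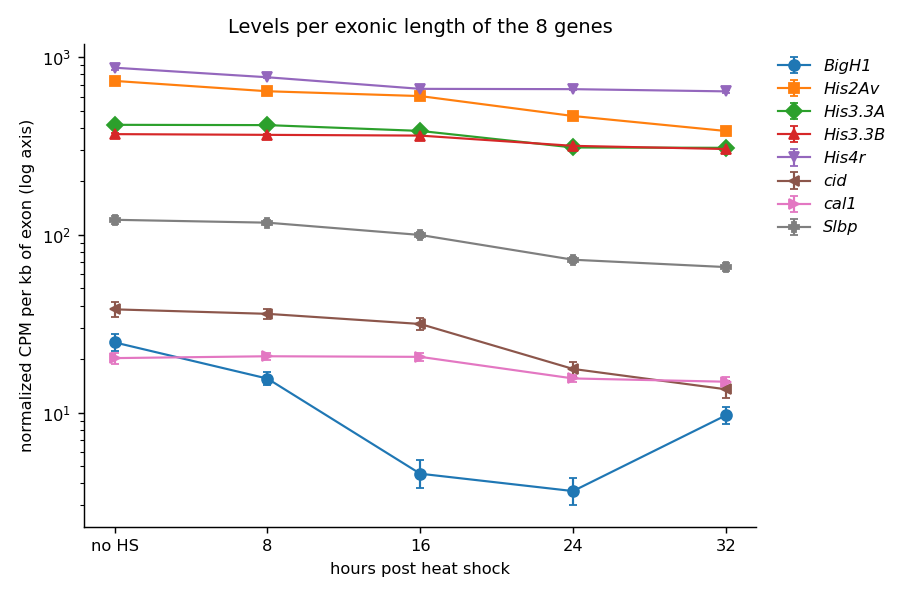
Normalized CPM per kb of annotated exon (vertical log axis) for the 8 genes in each library (horizontal axis, no HS and hours PHS), with exact 95% Poisson intervals. The replacement histones lie between 304 and 872 CPM per kb in all libraries, while BigH1 starts at 24.8 and reaches 3.61 at 24 h.

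Among the whole set, 7 of the 8 genes had a level below that in no HS at 8 and 16 h PHS and all 8 had one at 24 and 32 h, except that His3.3A and His3.3B lay just above no HS at 8 h when libraries were scaled to equal totals. The counting interval lay below no change for only 3 of the 8 at 8 h, for 6 at 16 h and for all 8 at 24 and 32 h. Of features with at least 10 CPM in 1 of the 2 libraries, 47.5%, 49.9%, 48.8% and 50.1% were below no HS at the 4 times. The number lower by more than 2-fold was 0 of 8 at 8 h, where 0.165% of all features were, 1 at 16 h (BigH1, background 0.416%), 2 at 24 h (BigH1 and cid, background 0.987%) and 2 at 32 h (the same genes, background 1.18%). The number higher by more than 2-fold was 0 of 8 at every time, where 0.2%, 0.228%, 0.548% and 1.13% of all features were. Past 1.5-fold, 1 gene was lower at 8 h and 1 at 16 h (BigH1, background 0.844% and 2.04%), and 4 were lower at 24 h and 4 at 32 h (BigH1, cid, His2Av and Slbp, background 3.15% and 4.04%). From 16 to 24 h, cid alone was lower by more than 1.5-fold, where 0.696% of all features were. The median change of the 8 genes was -0.07, -0.27, -0.54 and -0.66 at 8, 16, 24 and 32 h, and that of the features with at least 10 CPM was 0.01, 0.00, 0.01 and -0.00. All 4 comparisons share the no HS library.

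**Figure D4:**
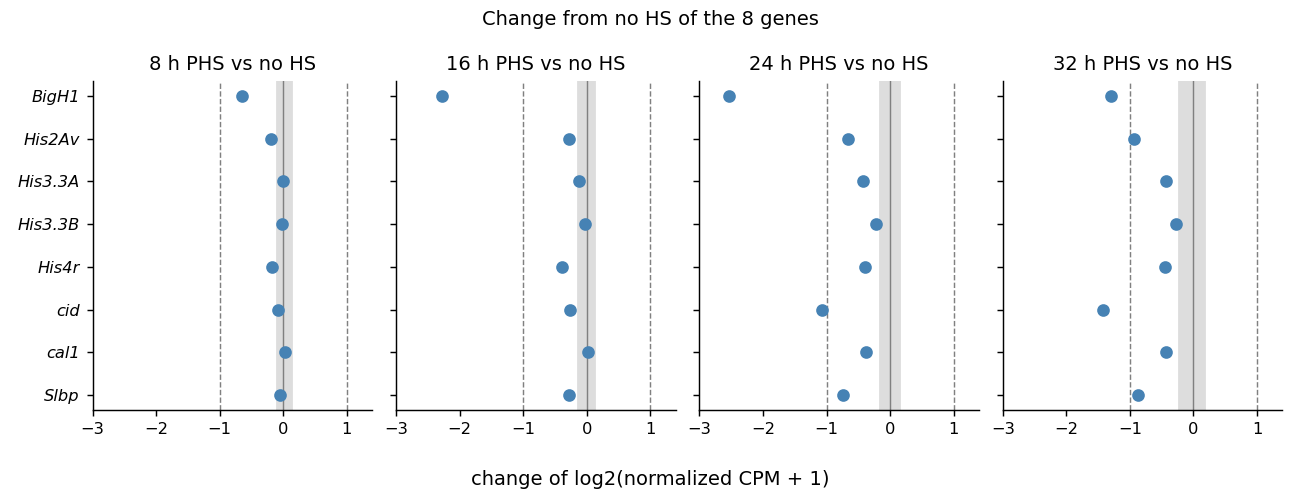
Change of log2(normalized CPM + 1) from no HS (horizontal axes) for the 8 genes at 8, 16, 24 and 32 h PHS. Grey bands span the middle 50% of features with at least 10 CPM in 1 of the 2 libraries, and dashed lines mark 2-fold. BigH1 has the lowest change of the 8 up to 24 h, and cid, past 2-fold from 24 h, has the lowest at 32 h, at -1.43.

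The comparison of 32 h with 8 h PHS leaves out the no HS library and sets 2 heat-shocked libraries side by side. All 8 genes were lower at 32 h, as were 52.3% of features with at least 10 CPM in 1 of the 2 libraries, and the counting interval of each lay below no change. cid was the only gene past 2-fold, at 37.6% of its level at 8 h (33.1% to 42.7%), where 1.08% of all features were lower by as much. 4 genes, cid, Slbp, His2Av and BigH1, were lower by more than 1.5-fold, where 4.27% of all features were. Slbp was at 56.3% (53.1% to 59.6%), His2Av at 59.8% (58.4% to 61.1%), BigH1 at 62.1%, cal1 at 71.9%, His3.3A at 74.5%, His3.3B at 83.2% and His4r at 83.3%. BigH1 was thus in the middle of the 8 in this comparison.

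Histone chaperones, which carry histones to and from DNA, included some of the larger decreases. Of 17 listed genes 1 was lower by more than 2-fold than in no HS at 24 h (Caf1-180, background 0.987%) and 2 at 32 h (Caf1-180 and asf1, background 1.18%), and 0 were higher. asf1, which hands newly made H3 and H4 to the assembly factors, was at 66.5 CPM at 32 h against 150.2 CPM in no HS, a change of -1.16. Caf1-105, the middle subunit of the same factor as Caf1-180, was at 40.1 CPM at 32 h against 61.5 CPM in no HS, with a change of -0.61. Hira, yem and XNP, genes for H3.3 deposition outside S phase, were nearer to no change at 32 h, with 0.09, -0.30 and -0.06. Dek, another chaperone of the list, was lower by more than Caf1-105. It was at 487 CPM at 32 h against 819 CPM in no HS, a change of -0.75. dre4 and Ssrp, the subunits of FACT, which loosens nucleosomes for polymerases, had changes of -0.34 and -0.46. Over the 17 genes the median changes were 0.07, 0.02, -0.23 and -0.30 at 8, 16, 24 and 32 h PHS.

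S phase genes, like cid and Slbp, were lowest in the last libraries. The list had 16 genes, all for DNA replication and its control except stg, which drives entry into mitosis. Of the 16, 0 were lower by more than 2-fold than in no HS at 8 and 16 h (background 0.165% and 0.416%). At 24 h 12 were (0.987%) and at 32 h 14 were (1.18%). stg is counted among the 14, with a change of -1.05. The median change of the 16 genes was 0.03, -0.32, -1.18 and -1.42 at the 4 times. Their summed level was 1232 CPM at 32 h against 3341 CPM in no HS. PCNA, the sliding clamp of DNA polymerases, was at 178 CPM at 32 h against 504 CPM in no HS. The part of S phase in the changes of the histone variant genes was not tested. BigH1 differed in timing: at 16 h its change was -2.27, while the lowest of the 16 genes of the S phase list stood at -0.59.

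**Figure D5:**
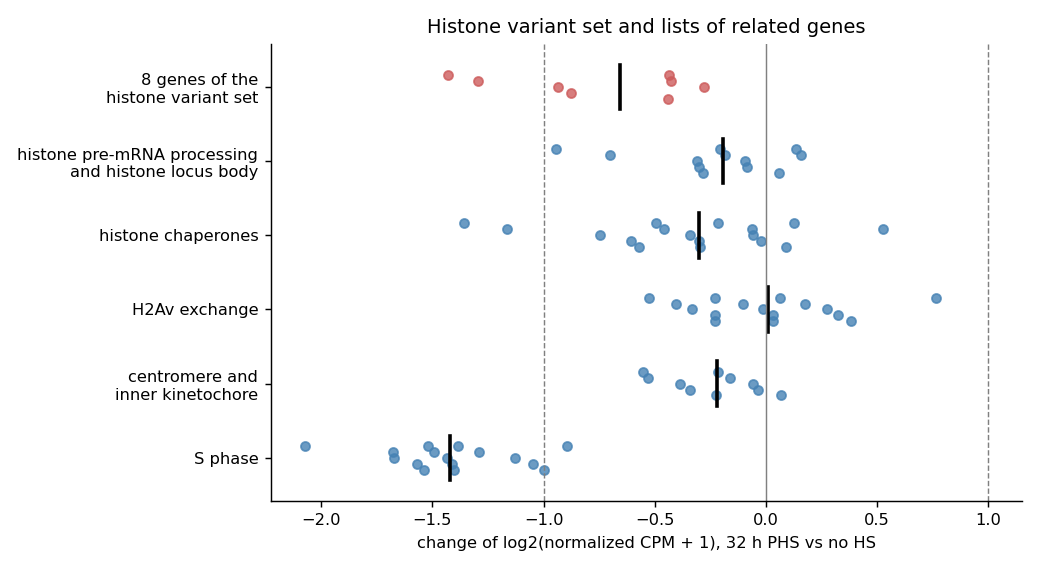
Change of log2(normalized CPM + 1) at 32 h PHS from no HS (horizontal axis) for the 8 genes (red) and for 5 lists of related genes (blue), 1 point per gene, with black bars at the medians and dashed lines at 2-fold. The median is -0.66 for the 8 genes, -1.42 for the S phase list, -0.30 for histone chaperones and 0.01 for H2Av exchange.

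Genes listed for sperm proteins were near 0 throughout. Of 9 listed genes none exceeded 1.31 CPM in any library, and their summed level was 3.76 CPM at 32 h against 1.85 CPM in no HS. ProtA, ProtB and Mst77F, for protamine-like proteins that pack sperm DNA after histones are removed, were at most at 0.292 CPM. Not all of the list packs DNA: Mst87F, which reached 1.31 CPM, Mst98Ca and Mst98Cb do not. Mst98Cb had the largest change at 32 h, 0.67, where it was at 0.591 CPM.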

How the data were processed

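The authors trimmed 100 bp paired reads (trim galore 0.4.3), mapped them to BDGP6.46 with STAR 2.5.3, kept proper pairs with a mapping quality of at least 10 (SAMtools 1.4.1), counted reads per gene with featureCounts (subread 1.5.0) and normalized by TMM in edgeR 3.34.0. The deposited values are log2(normalized CPM + 1), although the table is named for CPM. Differences of log2(CPM + 1), the planned measure, were therefore taken on the deposited scale, and CPM were obtained by undoing the log2 (2 raised to each value, less 1). All values were whole multiples of the CPM of 1 read within a tolerance of 0.01 reads, which gave reads and depth. With 1 library per time no model was fitted. Ratios carry Clopper-Pearson intervals and levels Poisson intervals, both for counting error only. Duplicate PCR copies of 1 molecule count as separate reads, so that these intervals may be too narrow.

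The 5 columns were matched to samples by name, with 0 left over. Coordinates and exon lengths are from Ensembl BDGP6.54, a later release on which 14797 of the 14819 gene identifiers were found. The members, the 13 gene lists (7 of pathways, 6 of markers) and the alternatives were chosen with earlier results of these data known. 5 listed symbols could not be matched to a row. Named genes are the 8 members, list members past 2-fold or at a list's limits, and, for BigH1, cid, cal1 and Slbp, the 5 nearest genes by the largest difference in change over the 4 times. Other list members, neighbouring genes and histone pseudogenes were named after their values were seen. Sequences of the genes and proteins were not analysed here. The steps were tested on simulated data. Python 3.11.15, numpy 2.4.6, pandas 2.3.3, scipy 1.17.1 and matplotlib 3.10.9 were used. Alternatives were other pseudocounts, a filter on low values, other scalings, another baseline and a 1.5-fold threshold.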

Additional observations from a re-analysis of the deposited data

How the results depend on the processing

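The limits are those of 1 library per time: the side of a threshold is not tested against variation between samples, and no HS, the library with the fewest reads, enters 4 of the 8 comparisons. No paired analysis was possible because each time has 1 library. The pseudocount and the baseline moved BigH1 most. With a pseudocount of 5 CPM its changes were -1.77, -1.93 and -1.08 at 16, 24 and 32 h against no HS, -1.20 at 16 h against 8 h, and 0.85 at 32 h against 24 h. Against a baseline averaged over no HS and 8 h it was -1.98, -2.25 and -1.01 at 16, 24 and 32 h. None of the 8 genes reversed a called change. Of 301 changes of the 7 other genes under alternatives, 18 lay outside the counting interval, and of 413 list counts 36 moved by over 1.5 times. With a pseudocount of 5 CPM the number of the 8 genes past 2-fold was 1 at 24 h against no HS and 0 at 32 h against 24 h. With a threshold of 1.5-fold it was 1, 4 and 4 at 8, 24 and 32 h against no HS, 1 at 24 h against 16 h and 4 at 32 h against 8 h.

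The number of all features past the threshold, in either direction, depended on low values. In the order 8, 16, 24 and 32 h against no HS, then 16 h against 8 h, 24 h against 16 h, 32 h against 24 h and 32 h against 8 h, it was 64, 113, 269, 405, 48, 58, 139 and 369. With a pseudocount of 0.1 CPM it was 1359, 1425, 1923, 1979, 833, 786, 946 and 1390, with 5 CPM 15, 29, 115, 175, 15, 24, 48 and 176, and at 1.5-fold 389, 636, 1068, 1351, 323, 267, 375 and 1225. Over features with at least 10 CPM in 1 of the 2 libraries, a filter chosen after seeing the data, it was 23, 47, 159, 236, 19, 29, 51 and 226. Against the averaged baseline it was 66 at 16 h. The direction moved too: against no HS, 73 features were lower and 40 higher at 16 h, but 513 lower and 912 higher with 0.1 CPM, and at 32 h 207 were lower and 198 higher, but 746 lower and 1233 higher with 0.1 CPM and 173 lower and 211 higher under equal totals.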

Other observations

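A histone pseudogene had more reads after heat shock than before. His-Psi:CR33867 was at 0.389 CPM in no HS (4 reads), 1.42 CPM at 8 h (38 reads), 2.28 CPM at 16 h (48 reads), 1.75 CPM at 24 h (50 reads) and 0.802 CPM at 32 h PHS (19 reads). Its change from no HS was past 2-fold at 16 h alone, at 1.24, and the counting interval of the log2 ratio was 1.10 to 4.48 there and -0.55 to 3.06 at 32 h. His2B:CG33868, a replication-dependent copy, was also highest at 16 h, with 1.66 CPM against 0.779 CPM in no HS. Both are low, and the part of the authors' filter on mapping quality in these values was not tested.

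Markers of the muscle sheath summed to 1554 CPM at 32 h against 1190.5 CPM in no HS, and bt, a giant sarcomere protein, had the highest change at 24 h, 1.02. Markers of cyst cells summed to 161 CPM at 32 h against 206 CPM in no HS, with a change of -0.81 for zfh1 and 0.21 for eya. Among accessory gland and duct markers, Dup99B was at 8.86, 2.46, 12.2, 3.57 and 0.633 CPM in no HS and at 8, 16, 24 and 32 h PHS, with a change of 1.93 at 16 h against 8 h and of -2.59 at 32 h against no HS. Of the other 6, Est-6 was between 75.9 and 104 CPM and 5 were under 1 CPM in every library. The part of these cells in the levels of the 8 genes was not tested.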
